A study of Homo sapiens with 6 samples.

Results

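The transcription factors commonly grouped as drivers of epithelial to mesenchymal transition (EMT) are SNAI1, SNAI2, ZEB1, ZEB2, TWIST1, TWIST2, PRRX1 and FOXC2. All 8 were found by NCBI gene identifier among the 28395 genes of the count table, and 6 of them had enough reads to be tested. In NUAK2-CR cells the level of SNAI1 fell to 11.8% of WT, while ZEB1, PRRX1 and TWIST1 rose to 203%, 173% and 158% of WT. SNAI2 and ZEB2 did not pass the test, and TWIST2 and FOXC2 were at or under 2 counts in every library.

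The libraries were made from U251, an established human glioblastoma cell line, with 3 libraries for each of the groups WT and NUAK2-CR. NUAK2-CR cells received a CRISPR guide against NUAK2 from lentiviral vectors carrying GFP and mCherry, and lines were grown from single double-positive cells; the labels do not say which clone was sequenced. An effect of the NUAK2 lesion and a property of the clone therefore cannot be told apart in this comparison. Nothing in the labels says that replicates came from separate cultures, so p-values measure the spread between these libraries, which may be technical.

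EMT is the programme by which epithelial cells lose their junctions and polarity and take up a mesenchymal, motile form in the embryo, in wound repair and in carcinoma. SNAIL, SLUG and the ZEB proteins are zinc finger repressors that bind E-boxes in the promoters of epithelial genes such as CDH1, whereas the TWIST proteins are basic helix-loop-helix factors, PRRX1 is a homeobox factor and FOXC2 a forkhead factor. Glial tumors do not start from an epithelium, and in them these factors are better known for links to invasion and to the mesenchymal state of glioblastoma.

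Totals on genes ranged from 29648445 to 55574081 counts per library. Counts were scaled to a common library size (normalized counts) and tested with edgeR, with p-values adjusted over the 14873 genes that passed its filter on low counts. NUAK2 itself had 1926, 1457 and 1580 normalized counts in the WT libraries and 799, 961 and 849 in the NUAK2-CR libraries, which is a log2 fold change (log2FC, NUAK2-CR over WT) of -0.93 (standard error 0.11, adjusted p = 1.8e-05). The 20 tested genes nearest to NUAK2 on chromosome 1 had a median log2FC of -0.82, and NUAK2 less their shift was at -0.12. The fold change of NUAK2 thus stood close to the median of its neighbours. These neighbours were widely spread, from -4.45 for KLHDC8A to 0.51 for SLC60A1. A CRISPR lesion need not lower the RNA, and the lesion itself cannot be read from counts per gene. The study reported the deletion of NUAK2 by immunoblot and qPCR in its U251 clones. NUAK1, the paralogue of NUAK2, rose, with a log2FC of 0.68 (adjusted p = 3.38e-06). In bulk RNA, fewer cells that express a gene and less of its RNA in each cell cannot be told apart.

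Of the 6 tested factors, 4 had an adjusted p-value under 0.05, against 54.5% of all genes tested. The 3 that rose are read against 26.3% of all genes that were higher in NUAK2-CR, and the 1 that fell against 28.2% that were lower. SNAI1 was the only member past an absolute log2FC of 2, which 4.72% of all genes also passed with an adjusted p-value under 0.05. The groups did not overlap for these 4 factors, as for 61.4% of all genes tested. The median log2FC was 0.41 over the 6 tested factors and -0.01 over all genes tested.

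**Figure D1:**
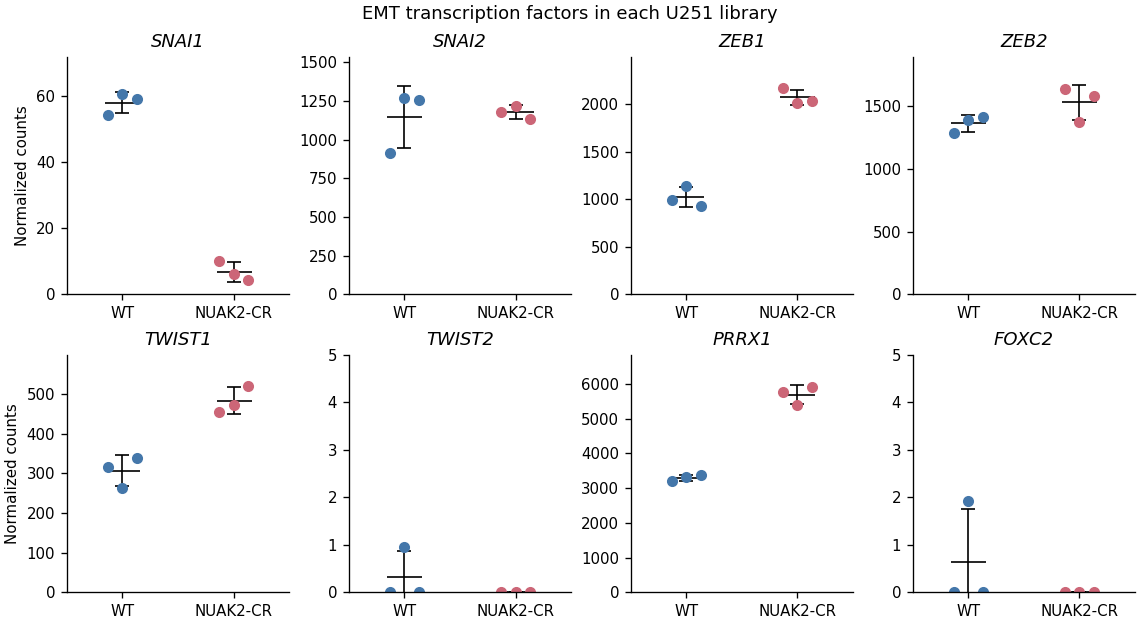
Normalized counts of the 8 factors in each library, on linear axes that start at 0; points are libraries, and the horizontal lines and bars are the mean and SD of 3 libraries. SNAI1 was lower and ZEB1, TWIST1 and PRRX1 were higher in each NUAK2-CR library than in any WT library, while the groups overlapped for SNAI2 and ZEB2.

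SNAI1 encodes SNAIL, a zinc finger repressor of epithelial genes whose protein is short-lived. It lies on chromosome 20 from 49982980 to 49988886 (GRCh38, gene 6615). SNAI1 had 54.5, 60.8 and 59.1 normalized counts in the WT libraries, given here and below in the order of replicates 1, 2 and 3, and only 10.2, 6.03 and 4.39 in the NUAK2-CR libraries. The WT libraries lay close together, and the lowest of them was far above the highest NUAK2-CR library. Means were 58.1 ± 3.27 (SD, n = 3) and 6.86 ± 2.97 (SD, n = 3), a log2FC of -3.08 (standard error 0.39, 95% interval -3.93 to -2.22, adjusted p = 3.12e-05 with edgeR's quasi-likelihood test). The raw counts behind these values were small, with 82, 63 and 55 in WT against 8, 5 and 4 in NUAK2-CR. Leaving out each library in turn kept SNAI1 between -3.44 and -2.83.

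SNAI2 encodes SLUG, the close relative of SNAIL that is prominent in neural crest and mesenchymal cells. The gene is on chromosome 8, from 48917598 to 48921429. SNAI2 had 916, 1272 and 1254 normalized counts in WT against 1180, 1220 and 1132 in NUAK2-CR. WT replicate 1 was the lowest library, and the NUAK2-CR values lay inside the WT range. The log2FC was 0.040 (95% interval -0.21 to 0.29, adjusted p = 0.792). SNAI1 supplied 4.89% ± 0.626 (SD, n = 3) of the summed normalized counts of the SNAI1 and SNAI2 pair in WT libraries and 0.577% ± 0.245 (SD, n = 3) in NUAK2-CR. The sum of the pair was 1206 ± 204 (SD, n = 3) in WT libraries and 1184 ± 45.4 (SD, n = 3) in NUAK2-CR, so nearly all SNAIL family reads were SNAI2 in both groups.

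ZEB1 encodes a repressor with zinc finger clusters at both ends and a homeodomain between them, which acts with CtBP co-repressors and is held in check by the miR-200 family in epithelial cells. ZEB1 spans chromosome 10 from 31318417 to 31529804. ZEB1 had 995, 1140 and 932 normalized counts in WT against 2166, 2015 and 2033 in NUAK2-CR. All NUAK2-CR libraries stood above all WT libraries. The log2FC was 1.02 (standard error 0.09, 95% interval 0.83 to 1.21, adjusted p = 9.73e-07), or 2.03-fold.

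ZEB1-AS1 overlaps the start of ZEB1 on the opposite strand, and reads were counted with the default parameters of featureCounts, which do not use strand, so reads from the overlap cannot be assigned to either gene. It had 40.5, 63.7 and 89.2 normalized counts in WT against 126, 83.2 and 103 in NUAK2-CR, with overlapping groups and a log2FC of 0.71 (95% interval 0.06 to 1.36, adjusted p = 0.0618). Its counts were far below those of ZEB1.

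ZEB2, also known as SIP1, is the paralogue of ZEB1 with major roles in neural crest and glial development. It lies on chromosome 2 from 144384081 to 144520119. ZEB2 had 1291, 1389 and 1416 normalized counts in WT against 1639, 1376 and 1585 in NUAK2-CR. NUAK2-CR replicate 2 fell within the WT range and the other two lay above it. The log2FC was 0.17 (95% interval -0.02 to 0.35, adjusted p = 0.114), and without NUAK2-CR replicate 2 it passed the threshold at 0.24 (adjusted p = 0.0451). ZEB1 made up 42.8% ± 2.77 (SD, n = 3) of the pair's normalized counts in WT libraries and 57.5% ± 1.70 (SD, n = 3) in NUAK2-CR. ZEB1 was thus the lesser of the pair by counts in each WT library and the greater in each NUAK2-CR library. Counts are not corrected for length, and this change of rank depended on it. Per kilobase of the longest coding transcript, ZEB1 was above ZEB2 in each WT library too (4.31, 4.82 and 3.93 against 3.65, 3.83 and 3.89). With the mean transcript length it was below ZEB2 there (7.10, 7.93 and 6.47 against 8.79, 9.22 and 9.38). The pair summed to 2388 ± 126 (SD, n = 3) in WT libraries and 3605 ± 207 (SD, n = 3) in NUAK2-CR.

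TWIST1 encodes a basic helix-loop-helix factor of mesoderm and cranial neural crest that pairs with E-proteins. Its position is chromosome 7 from 19113047 to 19117636. TWIST1 had 316, 264 and 340 normalized counts in WT against 456, 473 and 521 in NUAK2-CR. The groups did not overlap, and the lowest NUAK2-CR library was above the highest WT library. The log2FC was 0.66 (standard error 0.13, 95% interval 0.38 to 0.94, adjusted p = 0.000869). TWIST2, its shorter paralogue, had 0, 1 and 0 counts in WT and 0 in each NUAK2-CR library. A count of 0 allows up to 3 counts, which is 0.0540 to 0.101 CPM (counts scaled to the library total) here and covers counting error only. TWIST family reads thus came from TWIST1, and no difference in TWIST2 was detectable at this depth.

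PRRX1 encodes a paired-related homeobox factor of limb and craniofacial mesenchyme. PRRX1 spans chromosome 1 from 170662768 to 170739421. PRRX1 had 3196, 3317 and 3378 normalized counts in WT against 5778, 5391 and 5915 in NUAK2-CR. The spread within each group was small beside the gap between them. The log2FC was 0.79 (standard error 0.07, 95% interval 0.64 to 0.93, adjusted p = 9.22e-07), or 1.73-fold. The table counts reads per gene, so the splice forms of PRRX1 could not be separated.

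FOXC2 encodes a forkhead factor of mesenchyme and lymphatic vessels. It lies on chromosome 16 from 86566829 to 86569728 and had 0, 2 and 0 counts in WT and 0 in each NUAK2-CR library, which is no more than the floor of 3 counts. Genes of the same forkhead cluster were read well in the same libraries. FOXF1 (86510527 to 86515422) had 1124 ± 45.0 (SD, n = 3) normalized counts in WT libraries and 2429 ± 167 (SD, n = 3) in NUAK2-CR, a log2FC of 1.11 (adjusted p = 1.66e-07). FENDRR (86474525 to 86508860), the long noncoding RNA next to FOXF1, had 46.5 ± 1.86 (SD, n = 3) and 124 ± 31.5 (SD, n = 3), a log2FC of 1.41 (adjusted p = 0.000401). FOXC1, the paralogue of FOXC2 on chromosome 6, had 693 ± 45.2 (SD, n = 3) and 1064 ± 17.9 (SD, n = 3), a log2FC of 0.62 (adjusted p = 5.33e-05). FOXC2 reads were thus absent or nearly so beside a FOXF1 level that rose.

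**Figure D2:**
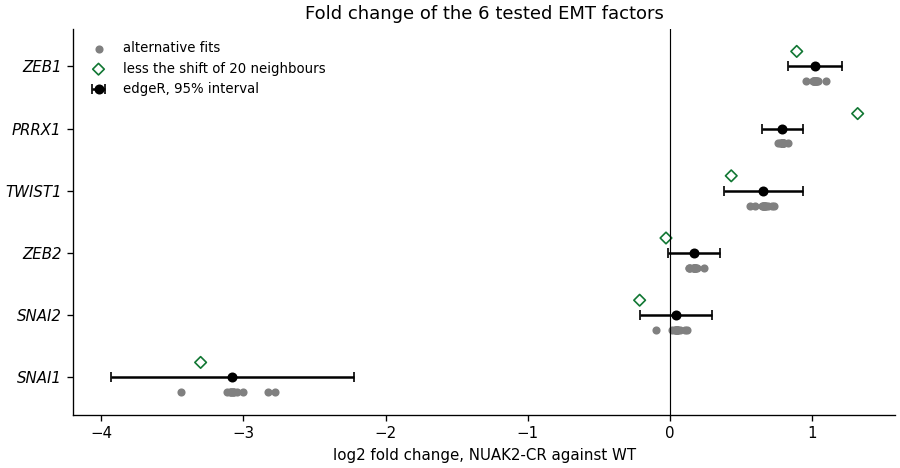
Log2FC of the 6 tested factors in NUAK2-CR against WT: black points and bars are the edgeR value and its 95% interval, grey points the alternative fits, and open diamonds the value less the shift of the 20 nearest tested genes, that is, their median less the median of all genes. ZEB1, PRRX1 and TWIST1 lay above 0 and SNAI1 below 0 in every fit drawn, while SNAI2 fell on both sides of 0.

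Levels were compared between factors as RPKM, reads per kilobase of the longest coding transcript scaled to library size. In WT the order was PRRX1 at 21.6 ± 0.300 (SD, n = 3), SNAI2 at 14.0 ± 2.26, TWIST1 at 5.01 ± 0.641, ZEB1 at 4.35 ± 0.445, ZEB2 at 3.79 ± 0.13 and SNAI1 at 0.907 ± 0.0383. In NUAK2-CR it was PRRX1 at 37.4 ± 2.05, SNAI2 at 14.4 ± 0.431, ZEB1 at 8.85 ± 0.330, TWIST1 at 7.92 ± 0.629, ZEB2 at 4.27 ± 0.401 and SNAI1 at 0.107 ± 0.0459. Within WT libraries TWIST1 was above ZEB1 in replicates 1 and 3 and below it in replicate 2, so their order there is not set. Within each NUAK2-CR library ZEB1 was above TWIST1, though by little in replicate 3 (8.77 against 8.63). PRRX1 and SNAI2 were the most abundant of the 8 factors and SNAI1 the least of those tested. With the mean coding transcript length in place of the longest, ZEB1 and ZEB2 stood above TWIST1 in WT, at 7.16 and 9.13 against 5.01. In NUAK2-CR the same choice put ZEB2 at 10.3, above TWIST1 at 7.92.

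The genes around each factor were also compared, because whole stretches of some chromosomes moved in this comparison. PRRX1 lies on chromosome 1, where tested genes had a median log2FC of -0.43, and only 4 of the 20 tested genes that start nearest to PRRX1 were positive. Those 20 had a median of -0.54, and PRRX1 less their shift (their median less that of all genes tested) stood at 1.32. The neighbours of the other 5 factors had medians from 0.12 to 0.24. Less their neighbours' shift, the values were -3.30 for SNAI1, 0.89 for ZEB1, 0.43 for TWIST1, -0.028 for ZEB2 and -0.21 for SNAI2. The 4 factors past the threshold thus kept their direction against their surroundings; copy number was not measured here.

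**Figure D3:**
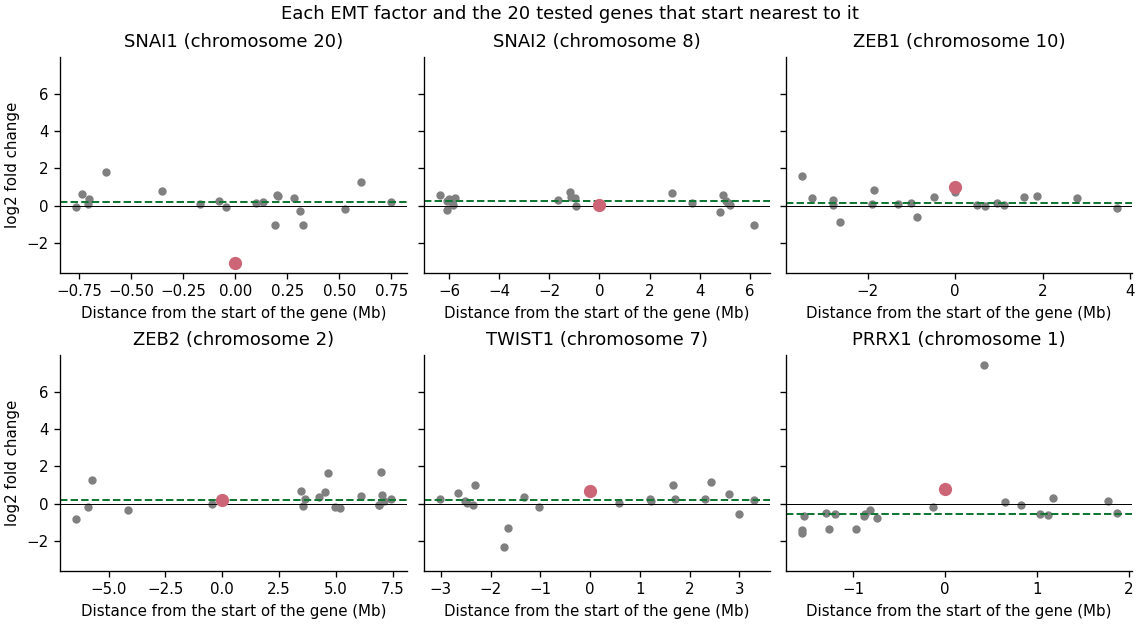
Log2FC of each tested factor (red) and of the 20 tested genes that start nearest to it (grey), by distance from the start of the factor in megabases; the dashed line is the median of the 20 neighbours. PRRX1 stood above a neighbourhood with a median of -0.54, and SNAI1 far below one with a median of 0.21.

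The promoter sequences show where the SNAIL and ZEB type of E-box falls. The letters searched were CAGGTG and its reverse complement CACCTG, in the 250 bases before each RefSeq start site (GRCh38.p14), and 17.5% of all 35116 promoters held at least 1. Sequences were matched for 4 of the 8 factors, namely ZEB1, ZEB2, TWIST2 and PRRX1. The motif was in 2 of the 7 promoters listed for ZEB1 and in none of the others. A factor that rose (ZEB1), an epithelial target that fell (CDS1) and a mesenchymal target that rose (AXL) were picked after their values were seen and are printed 5′ to 3′ because each sequence holds 1 such E-box, shown in capitals.
ZEB1, chr10:31318167-31318416, plus strand: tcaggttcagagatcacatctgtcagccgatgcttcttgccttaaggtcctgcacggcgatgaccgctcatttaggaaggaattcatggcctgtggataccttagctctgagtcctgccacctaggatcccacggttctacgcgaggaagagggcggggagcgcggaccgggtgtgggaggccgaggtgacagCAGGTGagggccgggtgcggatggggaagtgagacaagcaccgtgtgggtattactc
CDS1, chr4:84582877-84583126, plus strand: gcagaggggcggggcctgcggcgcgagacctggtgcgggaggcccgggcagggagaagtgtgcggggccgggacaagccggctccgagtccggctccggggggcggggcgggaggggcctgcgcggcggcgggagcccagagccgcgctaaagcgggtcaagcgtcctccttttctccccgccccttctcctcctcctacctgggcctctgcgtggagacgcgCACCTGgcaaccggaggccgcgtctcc
AXL, chr19:41218973-41219222, plus strand: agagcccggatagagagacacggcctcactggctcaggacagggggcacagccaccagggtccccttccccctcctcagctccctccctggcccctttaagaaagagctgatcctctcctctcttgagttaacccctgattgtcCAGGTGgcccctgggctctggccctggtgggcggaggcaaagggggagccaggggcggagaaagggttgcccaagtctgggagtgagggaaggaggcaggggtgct

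Counted back from the start site, with -1 for the base just before it, the E-box began at -57 in ZEB1, at -27 in CDS1 and at -106 in AXL. CDS1 makes CDP-diacylglycerol for phospholipid synthesis, and its log2FC was -0.46 (adjusted p = 0.00679). AXL is a receptor tyrosine kinase, and its log2FC was 0.34 (adjusted p = 0.00229). Counted by gene, the motif was found in 12 of 21 epithelial targets with a promoter sequence and in 5 of 22 mesenchymal targets, beside 20.6% of all genes. Among epithelial targets with a sequence it was in 3 of 6 that fell and 1 of 2 that rose. Among mesenchymal targets with a sequence it was in 1 of 6 that fell and 2 of 12 that rose. AXL had 2 promoters listed, and 1 of them held the motif. A match is only a run of letters, and binding was not measured.

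Partners that set how TWIST proteins work showed a split. Of 3 E-proteins, the dimer partners of TWIST1, TCF3 rose with a log2FC of 0.52 (adjusted p = 0.000139), while TCF4 was at -0.15 (adjusted p = 0.106) and TCF12 at 0.034 (adjusted p = 0.68). All 4 ID genes, whose products bind E-proteins without binding DNA, fell. ID3 had 11027 ± 977 (SD, n = 3) normalized counts in WT libraries and 1712 ± 89.1 (SD, n = 3) in NUAK2-CR, and ID2 had 1575 ± 124 (SD, n = 3) and 362 ± 42.1 (SD, n = 3). Their log2FCs were -2.69 (adjusted p = 2.48e-10) and -2.12 (adjusted p = 9.12e-09). ID3 is on chromosome 1, where the median of tested genes was -0.43. The whole list of 7 had a median of -1.08, and 71.4% of it was called, against 54.5% of all genes.

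Co-repressors and chromatin partners moved both ways. Of 18 tested genes 7 rose and 4 fell, with a median log2FC of 0.12; the 61.1% called stands beside 54.5% of all genes. WTIP, an Ajuba family LIM protein, had the largest rise, from a mean of 254 ± 24.5 (SD, n = 3) to a mean of 668 ± 67.0 (SD, n = 3) normalized counts, a log2FC of 1.39 (adjusted p = 1.31e-06). The other two Ajuba family members, AJUBA at 0.63 and LIMD1 at 0.57, rose as well and are named here after their values were seen. KDM1A, the histone demethylase LSD1 recruited by SNAIL, had the largest fall, with a log2FC of -0.72 (adjusted p = 1.24e-06), and the histone deacetylase HDAC1, named after its values were seen, was at -0.70. KDM1A and HDAC1 are both on chromosome 1, where the median of tested genes was -0.43.

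Of 21 genes that act on the turnover of SNAIL or TWIST proteins, 6 rose and 5 fell, with a median of -0.09. The 52.4% called was close to the 54.5% of all genes tested. DYRK2, a kinase that marks SNAIL for degradation, rose from a mean of 1499.8 ± 29.9 (SD, n = 3) to a mean of 2799 ± 180 (SD, n = 3) normalized counts, a log2FC of 0.90 (adjusted p = 5.38e-07). PSMD14, a proteasome deubiquitinase, fell from a mean of 6737 ± 279 (SD, n = 3) to a mean of 4161 ± 82.3 (SD, n = 3), a log2FC of -0.70 (adjusted p = 2.09e-06). Protein levels of the factors were not measured in these files. Of 12 miR-200, miR-205 and miR-34 genes, 10 were in the count table and 9 had no count in any library; mature miRNAs are too short for this kind of library.

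Of 29 inducing signals and signal transducers of EMT, 15 rose and 4 fell, with a median of 0.29, beside 26.3% of all genes that were higher and 28.2% that were lower. FGFR1, a fibroblast growth factor receptor, rose from a mean of 4086 ± 125 (SD, n = 3) to a mean of 9138 ± 195 (SD, n = 3) normalized counts, a log2FC of 1.16 (adjusted p = 2.07e-08). FGFR1 is on chromosome 8, where the median of tested genes was 0.30. WWTR1, which encodes TAZ, also rose, with a log2FC of 1.13. Of 12 regulators and markers of mesenchymal glioblastoma, 7 rose and 4 fell, with a median of 0.22, beside the same shares of all genes. CHI3L1, a secreted glycoprotein used as a marker of that state, rose from a mean of 3748 ± 205 (SD, n = 3) to a mean of 20695 ± 2329 (SD, n = 3), a log2FC of 2.47 (adjusted p = 6.77e-10) while the median of tested genes on its chromosome 1 was -0.43. CD44, a hyaluronan receptor that also stands among the mesenchymal targets, and TGFBI, a secreted matrix protein, are markers of the same state, and both fell, with log2FCs of -1.55 (adjusted p = 3.81e-08) and -1.52 (adjusted p = 3.58e-09); they are named after their values were seen. Of the 12 family relatives of the factors, 6 were tested, and FOXF1 and FOXC1 rose while none fell; 33.3% of them were called, against 54.5% of all genes.

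**Figure D4:**
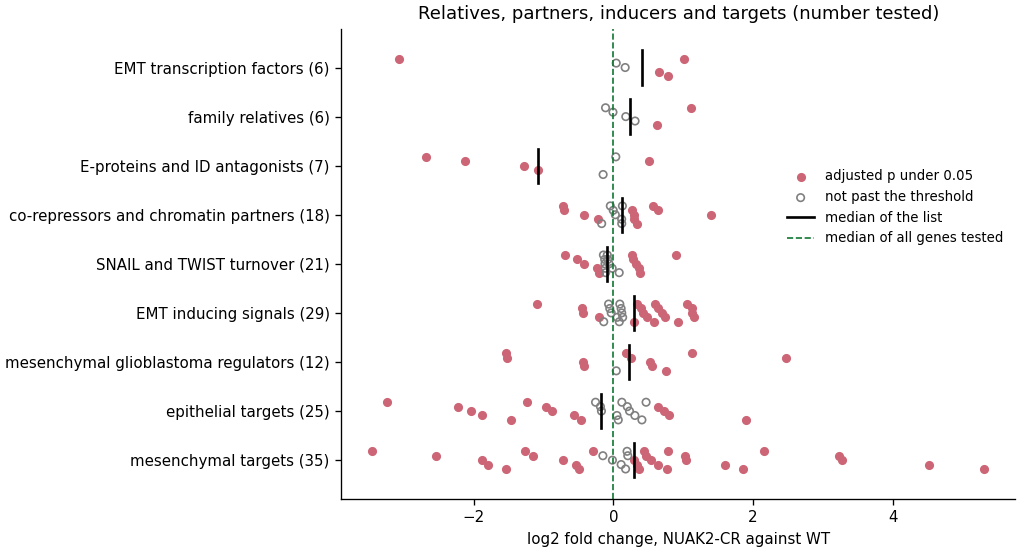
Log2FC of each tested gene in the lists of EMT factors, relatives, partners, inducers and targets; filled points had an adjusted p-value under 0.05, black bars are list medians and the dashed line is the median of all genes tested, -0.01. The list of E-proteins and ID antagonists had the lowest median, -1.08, and the mesenchymal targets spread from -3.46 to 5.31.

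Epithelial targets, a chosen list of epithelial genes that includes known targets of SNAIL and ZEB such as CDH1, moved both ways. Whether these factors repress each gene of the list was not tested. Of 36 genes 25 were tested, and 10 of them fell and 4 rose, beside 28.2% of all genes that were lower and 26.3% that were higher, with a median log2FC of -0.17. KRT19, a keratin of simple epithelia, had 199.9, 244 and 284 normalized counts in WT against 20.3, 33.8 and 22.0 in NUAK2-CR, a log2FC of -3.25 (standard error 0.25, adjusted p = 3.87e-07). SPINT1, an inhibitor of epithelial surface proteases, had 634, 616 and 629 in WT against 121, 124 and 155 in NUAK2-CR, a log2FC of -2.23 (standard error 0.13, adjusted p = 4.1e-08). PKP3, a desmosomal plakophilin, had 281, 226 and 291 in WT against 74.9, 63.9 and 56.0 in NUAK2-CR, a log2FC of -2.04 (standard error 0.19, adjusted p = 2.11e-06). In each of these 3 genes the groups were far apart. The 4 that rose, named after their values were seen, were ESRP1, an epithelial splicing regulator, at 1.90, the mucin MUC1 at 0.80, the polarity protein PALS1 at 0.73 and the keratin KRT18 at 0.64. ESRP1 rested on few reads, with 19, 17 and 3 counts in WT against 29, 40 and 36 in NUAK2-CR.

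CDH1 and EPCAM, the defining adhesion molecules of epithelia, were at or near the floor in both groups. CDH1 had 0, 6 and 4 counts in WT against 0, 4 and 0 in NUAK2-CR, and EPCAM had 4, 0 and 2 in WT against 2, 0 and 0 in NUAK2-CR. Neither had enough reads for the test. The summed level of the whole epithelial list was 18137 to 18522 normalized counts in WT against 17745 to 18045 in NUAK2-CR. This sum joins 10 genes that fell and 4 that rose, so near-equal sums do not mean that the single genes were unchanged. Among abundant genes, named after their values were seen, KRT18 rose from a mean of 3520 to 5499. KRT8 fell from a mean of 2163 to 1467.

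All 35 mesenchymal targets were tested; 18 rose and 11 fell, with a median of 0.30, beside 26.3% of all genes that were higher and 28.2% that were lower. POSTN, ACTA2 and FAP had the largest rises, with log2FCs of 5.31, 4.52 and 3.28. ACTA2, smooth muscle actin, had 92.3, 97.4 and 89.2 normalized counts in WT against 2023, 2190 and 2200.1 in NUAK2-CR, and its transcript resembles those of other actin genes. PDGFRA, a growth factor receptor of glial progenitors and mesenchyme, had 486, 785 and 718 in WT against 96.5, 85.6 and 156 in NUAK2-CR, a log2FC of -2.54 (standard error 0.23, adjusted p = 1.65e-06). The textbook readouts CDH2, VIM and FN1 are named here outside the rule for named genes and moved in different ways. CDH2 was at 0.17 (95% interval 0.01 to 0.34, adjusted p = 0.0667) and VIM fell by 0.49 on the log2 scale (adjusted p = 4.76e-05). FN1, which encodes fibronectin, rose from a mean of 27802.5 to 260475 normalized counts, a log2FC of 3.23 (adjusted p = 5.6e-10).

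**Figure D5:**
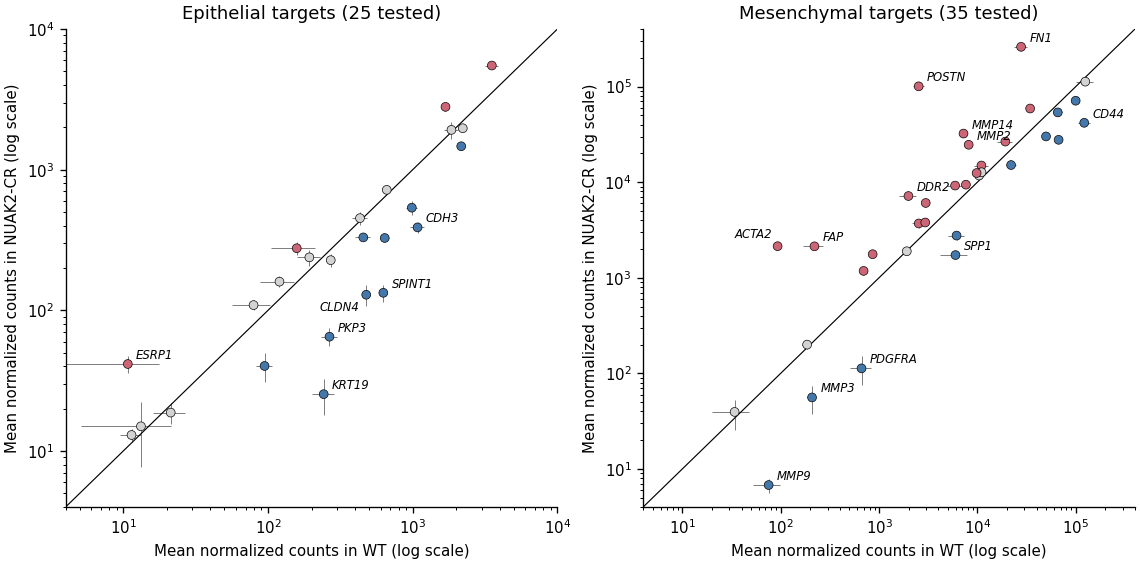
Mean normalized counts in WT (horizontal, log scale) and in NUAK2-CR (vertical, log scale) for tested epithelial targets (left) and mesenchymal targets (right); bars are SD of 3 libraries, the diagonal marks equal levels, and red and blue points were higher and lower in NUAK2-CR at an adjusted p-value under 0.05. KRT19, SPINT1 and PKP3 lie below the diagonal on the left, and POSTN, ACTA2 and FAP far above it on the right.

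Markers of the cell line and of other cell types moved in the same comparison. Of the 14 glioma and astrocyte markers 12 were tested, 2 rose and 7 fell (26.3% and 28.2% of all genes), and their summed level went from 340533 to 377250 normalized counts in WT to 176083 to 180567 in NUAK2-CR. Most of this sum came from CD44, VIM and GFAP, so it does not describe every marker. CD44 and VIM also stand among the mesenchymal targets. GFAP, the astrocyte filament protein, fell by 2.56 on the log2 scale, and OLIG2 and AQP4 were at or under 3 counts in every library. S100B and SLC1A2 had log2FCs of -2.60 and -2.19, while CHI3L1, given above, rose. The 8 immune markers summed to 860.2 to 973 in WT against 243 to 293 in NUAK2-CR, while PTPRC, CD3E, AIF1 and ITGAM, defining genes of immune cells, were at or under 3 counts in every library. The 2 tested immune markers carried that sum and both fell: CSF1R, a receptor of macrophages and microglia, had a log2FC of -2.46 (adjusted p = 4.94e-07), and the lysosomal protein CD68, named after its values were seen, one of -1.59. The 7 endothelial and pericyte markers summed to 782 to 907 in WT against 1194 to 1374 in NUAK2-CR. Of them, 3 were higher and 2 lower, beside 26.3% and 28.2% of all genes. PECAM1, a defining gene of endothelium, had 2, 0 and 0 counts in WT against 12, 14 and 14 in NUAK2-CR. VWF rose from a mean of 17.5 to 58.5 normalized counts, with a log2FC of 1.69 (adjusted p = 0.00135). Of others named after their values were seen, CSPG4, a pericyte and glial progenitor proteoglycan, rose from a mean of 314 to 942 normalized counts. CSPG4 alone made up most of the summed level of these markers in NUAK2-CR. The higher sum therefore does not mean that the list as a whole rose. The endothelial receptor KDR and the pericyte gene RGS5 fell, with log2FCs of -1.24 and -0.96. RGS5 is on chromosome 1, where the median of tested genes was -0.43. The part of these markers in the values of the EMT factors was not tested.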

How the data were processed

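RNA from 3 WT and 3 NUAK2-CR libraries of U251 cells was poly(A)-selected, made into stranded libraries and sequenced as paired-end reads. As the methods of the study and the submitters' processing notes state, Trimmomatic, HISAT2 (hg38) and featureCounts were run with default parameters; these defaults do not use strand, and the gene annotation is not given in the sources used here. The deposited values are raw counts per gene, made by the authors, with no normalization. Of 28395 NCBI gene identifiers, 27745 were matched to RefSeq symbols. Groups and replicate numbers came from the sample titles.

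Differential expression used R 4.3.3 and edgeR 4.0.16: filterByExpr, TMM scaling, the quasi-likelihood test (glmQLFit, glmQLFTest) with the default prior count, and Benjamini-Hochberg adjustment over 14873 genes. The pipeline was tested on simulated data. The study used DESeq2, which was run here (1.42.0) as an alternative, beside other filters and scalings, fits without 1 library, a higher prior count (2), a replicate block and subtraction of the shift of 20 neighbouring genes (their median less that of all genes). Transcript lengths came from GENCODE v44 and promoter sequences from RefSeq (GRCh38.p14). Libraries were not paired by replicate number in the main fit, and whether the numbers mark pairs could not be told.

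The 8 factors and all gene lists were chosen with earlier results of these data known. The named genes are the factors, NUAK2, NUAK1 and overlapping genes. Each list adds called members with an absolute log2 fold change over 2 and a mean of at least 100 normalized counts. At most the 3 highest and 3 lowest are taken, and a list with none adds its 2 largest called changes. The level of 1 immune marker is not reported here.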

Additional observations from a re-analysis of the deposited data

How the results depend on the processing

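The calls on SNAI1, ZEB1, TWIST1, PRRX1 and NUAK2 kept their direction and stayed past the threshold in every refit that tested them; SNAI1 was not tested where at least 10 counts were required in every library, which left 3 factors called. Over the refits SNAI1 ranged from -3.44 to -2.78, ZEB1 from 0.96 to 1.10, TWIST1 from 0.56 to 0.73 and PRRX1 from 0.76 to 0.83 on the log2 scale. Leaving out each library in turn moved SNAI2 between -0.10 (without WT replicate 1) and 0.12, moved ZEB2 between 0.14 and 0.24 (past the threshold without NUAK2-CR replicate 2, adjusted p = 0.0451), and moved the number of called factors between 4 and 5; the causes were not tested. Less the shift of neighbouring genes, the values were -0.21 for SNAI2, -0.028 for ZEB2, 0.89 for ZEB1, 0.43 for TWIST1 and 1.32 for PRRX1. With mean in place of longest transcript length, levels per kilobase in WT and NUAK2-CR were 21.7 and 22.4 for SNAI2, 7.16 and 14.6 for ZEB1, 9.13 and 10.3 for ZEB2, and 26.9 and 46.6 for PRRX1. The 8107 genes called became 2062 with an absolute log2 fold change over 1 and 702 over 2. Of the antisense neighbours, 1 was called, and 2 were with no filter beyond 1 count and without WT replicate 3 (leave-one-out range 1 to 2). With the replicate block 8167 genes and the same number of factors, 4, were called. Deviations of same-numbered libraries correlated at 0.043, -0.035 and 0.048 over genes. WT replicates 1 and 3 correlated best with their own number and WT replicate 2 did not. Correlations this small cannot decide whether the libraries were paired. At these depths a gene under 3 counts, as TWIST2 and FOXC2 were, could not be compared.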

Other observations

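The 3 tested genes whose log2 CPM values were most like those of SNAI1 over the 6 libraries were HNRNPA1L2, SYTL1 and ABITRAM, with Pearson r of 0.999, 0.998 and 0.998. These are descriptions over 2 groups of 3 libraries, and 18.9% of the other tested genes had an r over 0.9 with SNAI1. SYTL1, a Rab27 effector of vesicle transport, fell from a mean of 301 ± 4.08 (SD, n = 3) normalized counts over the WT libraries to a mean of 54.7 ± 21.2 (SD, n = 3), with a log2FC (log2 fold change) of -2.47. HNRNPA1L2 and ABITRAM fell by 0.34 and 0.47 on the log2 scale, far less than SNAI1. Of the 6 neuron markers, 3 rose and 1 fell, beside 26.3% and 28.2% of all genes. SNAP25, a synaptic fusion protein, had a log2FC of 3.56, while the marker that fell was TUBB3, a neuronal tubulin with a mean of 16225 ± 1532 (SD, n = 3) normalized counts in WT and a log2FC of -0.49 (adjusted p = 0.000167).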
